A study of Sus scrofa with 3 samples.

Results

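Small leucine-rich proteoglycans are secreted matrix proteins, and the 10 genes DCN, BGN, LUM, FMOD, OGN, ASPN, PRELP, OMD, PODN and KERA were taken by symbol from the count tables. All 10 symbols had a row, out of 26466 symbols in all, and 8 of them reached 10 counts in every 1000000 of its library (CPM) in at least 1 library. The libraries were 3 in number, all from pig: peripheral blood mononuclear cells (PBMC), mesenchymal stem cells derived from bone marrow (BM-MSC), and cells labelled as attached cells of bone marrow (BMAC). Each population is a single library, made from total RNA with a QuantSeq kit, which reads a fragment near the 3' end of a transcript. The labels give no strain, sex, age, treatment, passage or animal for any population, and no gene was altered in any of them as far as the labels say.

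The proteins of this family share a solenoid of leucine-rich repeats, and most carry chains of chondroitin, dermatan or keratan sulfate. They lie on collagen fibrils, where they help to set fibril thickness and spacing, and several bind growth factors such as TGF-beta or signal through cell surface receptors. By sequence they fall into classes. Decorin (DCN), biglycan (BGN) and asporin (ASPN) form class I, fibromodulin (FMOD), lumican (LUM), PRELP, osteomodulin (OMD) and keratocan (KERA) class II, osteoglycin (OGN) belongs to class III and podocan (PODN) to class V. In the skeleton and its marrow stroma BGN and DCN are known as matrix products of mesenchymal cells, and OMD as a product of osteoblasts.

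Total counts ranged from 15122997 to 17069344 per library, so that 10 CPM corresponds to 152 to 171 counts and 3 counts to 0.176 to 0.198 CPM. All 10 stromal markers (among them COL1A1, PDGFRA and PDGFRB) reached 10 CPM in BM-MSC and in BMAC, with summed levels of 13442 and 11367 CPM against 61.4 CPM in PBMC, of which THY1 made up 48.7. The 6 pan-leukocyte markers summed to 5.29 CPM in BMAC, 14.9 CPM in BM-MSC and 5407 CPM in PBMC, with CD48 at 0 counts in both marrow libraries and CORO1A at 0 in BMAC. Of the markers of cartilage cells 0 of 6 reached 10 CPM in any library (summed 3.11 to 12.1 CPM). Osteoblast markers reached it for 1 of 5 in PBMC and for 0 in the marrow libraries. Smooth muscle and pericyte markers differed between the marrow libraries, with 3 of 5 at 10 CPM and 225 CPM summed in BM-MSC against 2 of 5 and 46.7 CPM in BMAC; their part in the results was not tested. Intervals in parentheses are 95% exact intervals that cover counting error only. With 1 library per population no difference has a replicate check, and no p-value is given. A lower level in such bulk RNA can come from fewer cells that express a gene or from less RNA per cell, which cannot be told apart here.

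The summed level of the 10 genes was 3127 CPM in BMAC, 2841 CPM in BM-MSC and 32.0 CPM in PBMC. The marrow libraries thus held similar amounts in total, from 48493 counts in BM-MSC and 47296 in BMAC, but divided them differently between the genes. In BM-MSC the largest parts of these counts came from PRELP (38.7%, 38.2 to 39.1) and BGN (35.8%, 35.4 to 36.2). In BMAC they came from FMOD (43.6%, 43.2 to 44.1), BGN (24.3%, 23.9 to 24.7) and DCN (16.4%, 16.0 to 16.7). Such shares are shares of counted reads, since counts near the 3' end are not scaled by transcript length and depend on how well each annotated end fits. PBMC had 494 counts for the family, and 94.3% of them lay on OGN, OMD and ASPN, which share their place in the genome with another gene (below, with the CENPP values); the other 7 genes held 28 counts there, or 1.81 CPM.

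**Figure D1:**
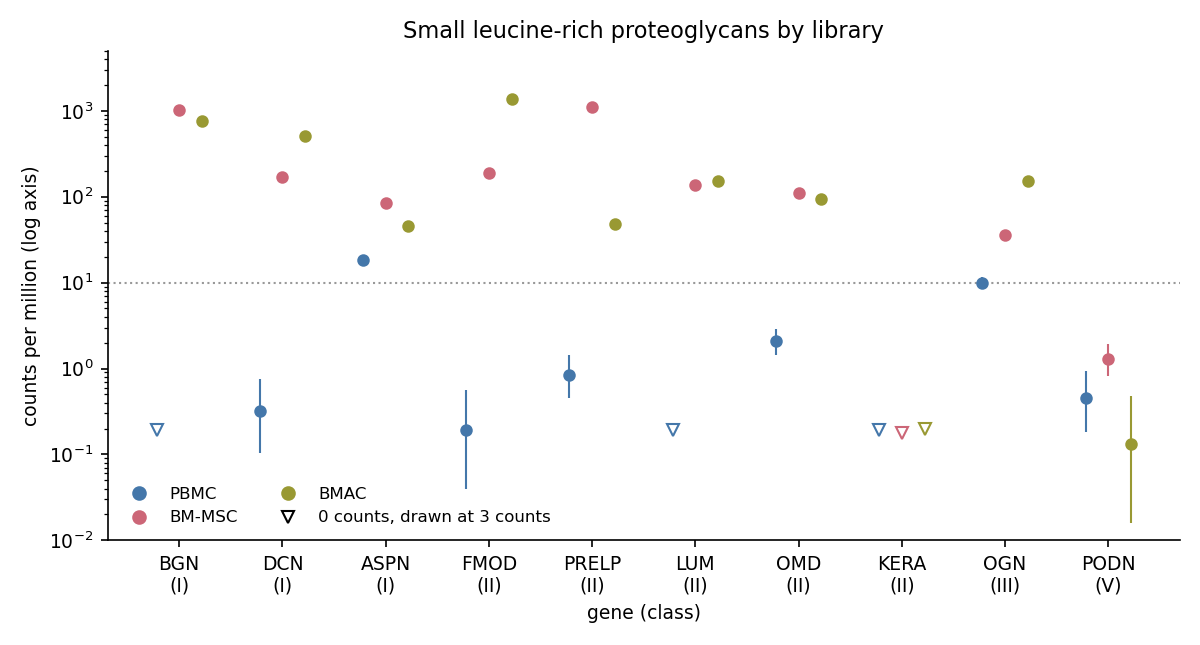
Level of each gene (CPM, log axis) in the 3 libraries, with 95% exact Poisson intervals as vertical lines where wider than the symbol; open triangles are libraries with 0 counts, drawn at 3 counts, and the dotted line is 10 CPM. Biglycan, decorin, fibromodulin, PRELP, lumican and OMD stood below 3 CPM in PBMC and above 40 CPM in both marrow libraries, and PRELP and fibromodulin lay far apart between the marrow libraries.

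**Figure D2:**
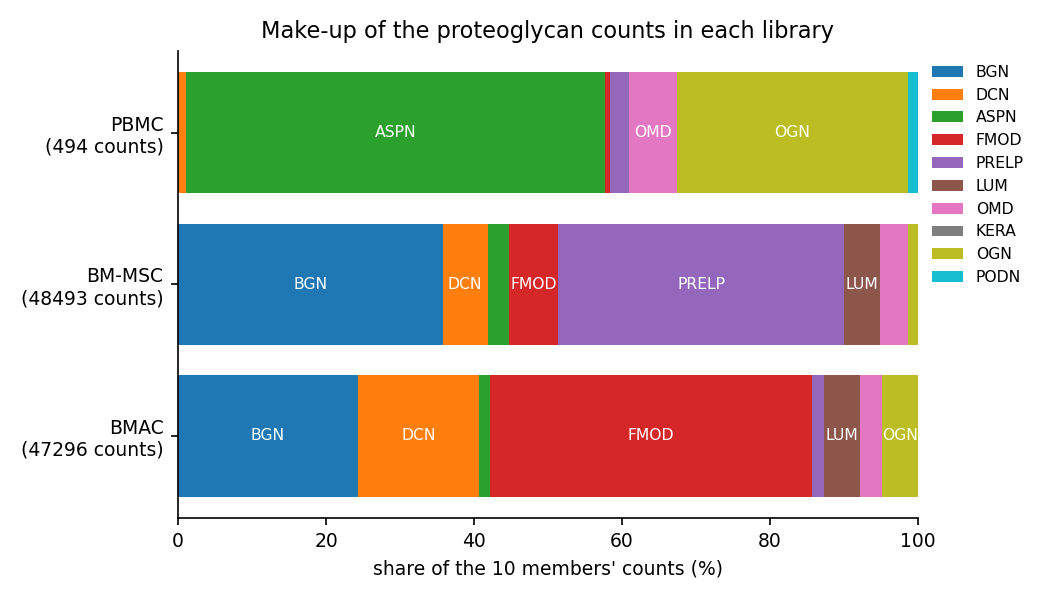
Share of the counts of the 10 genes (percent) taken by each gene in each library, with the number of counts beside the library name. PRELP took 38.7% in BM-MSC and 1.55% in BMAC, while fibromodulin took 6.59% and 43.6%.

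BM-MSC and BMAC were each set against PBMC to describe how the members differ between marrow cells and blood. A gene was counted as different when log2 of (CPM + 1) in one library over (CPM + 1) in the other was at least 2 in size, which is 4-fold, with at least 10 CPM and 10 counts in the higher library. By this rule 7 of the 8 measured members were higher in BM-MSC and 0 were higher in PBMC, where of the 11428 genes measured in this pair 14.3% passed towards BM-MSC and 15.7% towards PBMC. With TMM and median-of-ratios scaling BM-MSC held the higher level in 58.5% and 59.5% of the genes past the rule, in place of 47.6%. In BMAC 7 of 8 were higher and 0 lower, where of 11371 genes 14.0% passed towards BMAC and 12.8% towards PBMC. In each pair 7 of the 8 members reached 10 CPM through the marrow library alone, which favours a difference in that direction, so these counts are a description. The median log2 ratio of the 8 was 7.06 in BM-MSC and 6.10 in BMAC, or 9.25 and 7.73 without pseudocount and with 0 counts taken as 3, while the median of all genes measured was -0.16 and -0.12.

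Among the class I genes, biglycan, a proteoglycan with 2 glycosaminoglycan chains in its usual form, had 17361 counts in BM-MSC (1017 CPM, 1002 to 1032), 11498 counts in BMAC (760 CPM, 746 to 774) and 0 counts in PBMC. Against PBMC its level was at least 5237-fold higher for BM-MSC and at least 3915-fold higher for BMAC, taking 3 counts as the bound. Decorin, named for decorating collagen fibrils, had 5 counts in PBMC (0.324 CPM, 0.105 to 0.755), 171 CPM (165 to 178) in BM-MSC and 512 CPM (500 to 523) in BMAC. Both marrow libraries stood far above blood, BM-MSC by 529-fold (226 to 1630) and BMAC by 1580-fold (677 to 4869). Asporin, which lacks the usual glycosaminoglycan attachment and carries an aspartate-rich stretch, was at 45.3 CPM (42.0 to 48.8) in BMAC, 84.1 CPM (79.8 to 88.6) in BM-MSC and 18.1 CPM (16.1 to 20.4) in PBMC. Its order was the same as that of biglycan, but the distance to blood was small, 4.64-fold (4.08 to 5.29) for BM-MSC and 2.5-fold (2.17 to 2.88) for BMAC, and the BMAC value did not pass the size rule. With a pseudocount of 5 CPM the BM-MSC value of asporin did not pass either (log2 ratio 1.95 in place of 2.15).

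In class II, fibromodulin, a keratan sulfate proteoglycan that binds collagen and modulates fibril growth, had 3 counts in PBMC (0.194 CPM, 0.0401 to 0.568), 3196 counts (187 CPM, 181 to 194) in BM-MSC and 20638 counts (1365 CPM, 1346 to 1383) in BMAC. PRELP, which binds heparan sulfate chains and collagen and is thought to tie basement membranes to connective tissue, had 13 counts in PBMC (0.842 CPM, 0.448 to 1.44), 18744 counts (1098 CPM, 1082 to 1114) in BM-MSC and 735 counts (48.6 CPM, 45.2 to 52.2) in BMAC. Fibromodulin therefore peaked in BMAC and PRELP in BM-MSC, each with blood far below the lower marrow library. Against PBMC, fibromodulin was 964-fold (330 to 4677) higher in BM-MSC and 7026-fold (2404 to 34074) higher in BMAC, and PRELP was 1305-fold (763 to 2451) higher for BM-MSC and 57.7-fold (33.6 to 109) for BMAC. Lumican, which takes part in fibril assembly in cornea, skin and tendon, had 0 counts in PBMC, against a BM-MSC level of 137 CPM (131 to 142) and a BMAC level of 152 CPM (146 to 158), at least 704-fold and at least 783-fold above blood. OMD, a proteoglycan of mineralised matrix, was at 92.8 CPM (88.0 to 97.8) in BMAC, 109 CPM (104 to 114) in BM-MSC and 2.07 CPM (1.42 to 2.92) in PBMC. Lumican and OMD thus each had similar levels in BM-MSC and BMAC, and OMD stood above blood by 52.7-fold (37.2 to 77.2) in BM-MSC and by 44.8-fold (31.6 to 65.8) in BMAC. Keratocan, a proteoglycan of the cornea, had 0 counts in all 3 libraries, which allows up to 0.198 CPM in BMAC, 0.176 CPM in BM-MSC and 0.194 CPM in PBMC.

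Osteoglycin, the class III member, also called mimecan, was at 152 CPM (146 to 158) in BMAC, 36.0 CPM (33.2 to 39.0) in BM-MSC and 9.97 CPM (8.46 to 11.7) in PBMC. Its order followed that of decorin and fibromodulin, with BMAC highest. It was 15.2-fold (12.9 to 18.1) higher in BMAC than in PBMC, and 3.61-fold (3.02 to 4.34) higher in BM-MSC, below the rule. With TMM or median-of-ratios factors the latter log2 ratio went from 1.76 to 2.07 and 2.09, past the rule. Podocan, the class V member, had 7 counts in PBMC (0.453 CPM, 0.182 to 0.934), 22 in BM-MSC (1.29 CPM, 0.808 to 1.95) and 2 in BMAC (0.132 CPM, 0.0160 to 0.478). It was under 10 CPM everywhere and was not measured by the rule; its BM-MSC level was 9.75-fold (2.40 to 85.5) that of BMAC, from 22 and 2 counts.

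**Figure D3:**
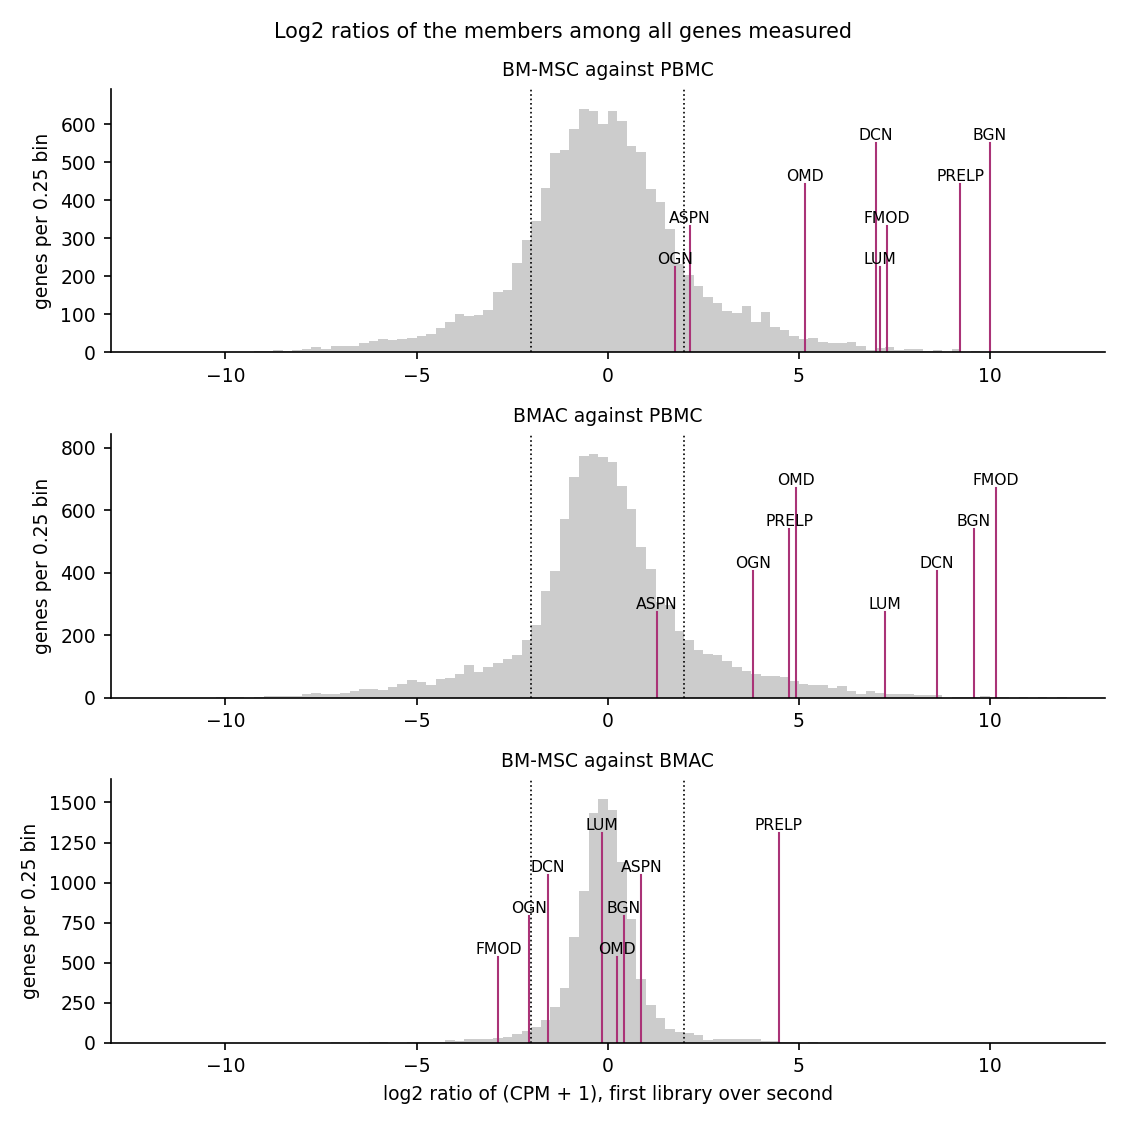
Histograms of the log2 ratio of (CPM + 1) over all genes measured in each pair (bins of 0.25), with the 8 measured members as vertical lines of arbitrary height and dotted lines at a log2 ratio of 2 in either direction. Against PBMC asporin in both panels and osteoglycin in the BM-MSC panel lay closest to the bulk of genes, with the other members farther to the right, and between the marrow libraries they ran from -2.86 for fibromodulin to 4.47 for PRELP.

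BM-MSC were set against BMAC to describe how the marrow populations differ in these proteoglycans. PRELP was higher in BM-MSC by 22.6-fold (21.0 to 24.4), and fibromodulin and osteoglycin were higher in BMAC by 7.29-fold (7.02 to 7.57) and 4.22-fold (3.86 to 4.62). These were 1 of 8 members past the rule towards BM-MSC and 2 of 8 towards BMAC, where 2.90% and 3.21% of the 10303 genes measured were past it. The log2 ratio of PRELP (4.47) was larger than that of 99.8% of those genes, that of fibromodulin (-2.86) was lower than that of 98.6%, and that of osteoglycin (-2.05) lower than that of 96.9%. The call of osteoglycin rests on the scaling, since its log2 ratio fell just short of the rule with TMM and was -1.98 with median-of-ratios factors, -1.96 without ribosomal RNA and mitochondrial rows and -1.94 with a pseudocount of 5 CPM.

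The other 5 measured members stayed under the rule. Decorin was 2.99-fold (2.86 to 3.12) higher in BMAC and lumican 1.11-fold (1.05 to 1.18) higher there. Asporin was 1.86-fold (1.69 to 2.04), biglycan 1.34-fold (1.31 to 1.37) and OMD 1.17-fold (1.10 to 1.26) higher in BM-MSC. All of these intervals lie on 1 side of equality, but they hold no variation between cultures or animals, and 80.7% of all genes measured lay within 2-fold. The median log2 ratio of the 8 members was 0.04 beside -0.09 for all genes.

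Ratios of 2 members within a library do not depend on how libraries are scaled. PRELP over fibromodulin was 5.86 counts per count (5.65 to 6.09) in BM-MSC and 0.0356 (0.0330 to 0.0383) in BMAC, a 165-fold difference between the libraries (152 to 179, normal approximation on the log scale). Biglycan over decorin was 5.94 (5.71 to 6.18) in BM-MSC and 1.49 (1.44 to 1.53) in BMAC, 4.0-fold apart (3.81 to 4.20). Both ratios were higher in BM-MSC. PRELP and fibromodulin are the members with the extreme ratios in opposite directions between these libraries. Their larger difference follows from that choice of pair and is no comparison of class I with class II. OMD over osteoglycin was 3.03 (2.76 to 3.32) and 0.611 (0.572 to 0.653), so that OMD held more counts in BM-MSC and osteoglycin more in BMAC.

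Several members are neighbours in the genome. In RefSeq gene records for Sscrofa11.1, DCN, LUM and KERA follow each other, as do FMOD and PRELP, and OGN, OMD, ASPN and the related ECM2. Neighbours did not share 1 order of levels. FMOD and PRELP, which are next to each other, had the extreme ratios of the family in opposite directions between the marrow libraries. In the first group decorin was highest in BMAC, lumican was nearly level between the marrow libraries and keratocan had no count. In the last group osteoglycin was highest in BMAC, while OMD, asporin and ECM2 were highest in BM-MSC.

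Values of the last group are uncertain because all 4 genes lie within the span of CENPP, a gene for a kinetochore protein, and no source used here gives the strand setting of the counts. The CENPP row held 1951 PBMC counts, 7891 BM-MSC counts and 6361 BMAC counts (126, 462 and 421 CPM). The 4 genes within it together held 742, 6905 and 5154 counts, or 38.0%, 87.5% and 81.0% of the CENPP number. The CENPP row thus exceeded their sum in each library, by 79.8 CPM in BMAC, 57.8 CPM in BM-MSC and 78.3 CPM in PBMC, and that remainder varied far less than the sum. Whether the CENPP row counts the same reads was not tested, and neither was the part of CENPP transcripts in the PBMC levels of osteoglycin, OMD and asporin. Subtracting the PBMC level of each gene from both marrow libraries cannot change which of them is higher, and shows only how the size of a difference depends on that level. Osteoglycin was then 5.45-fold higher in BMAC, and asporin was 2.43-fold and OMD 1.18-fold higher in BM-MSC. ECM2 went from 3.45-fold to 4.78-fold higher in BM-MSC (log2 ratio 1.77 and 2.22), which takes it past the size rule. Without these 3 members 5 of 5 measured members were higher in BM-MSC and 5 of 5 in BMAC than in PBMC, where 14.3% and 14.0% of all genes were. All 5 reached 10 CPM through the marrow library alone, which favours that direction, so these counts are a description and no check. Between the marrow libraries 1 of the 5 was past the rule in each direction, where 2.90% of all genes passed towards BM-MSC and 3.21% towards BMAC. PRELP holds the row LOC106507842 within its span, with 41 counts against 18744 in BM-MSC and 15 against 735 in BMAC. In PBMC it held 8 counts against 13 for PRELP (61.5%), so that the blood level under both PRELP folds is uncertain by this overlap too.

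**Figure D4:**
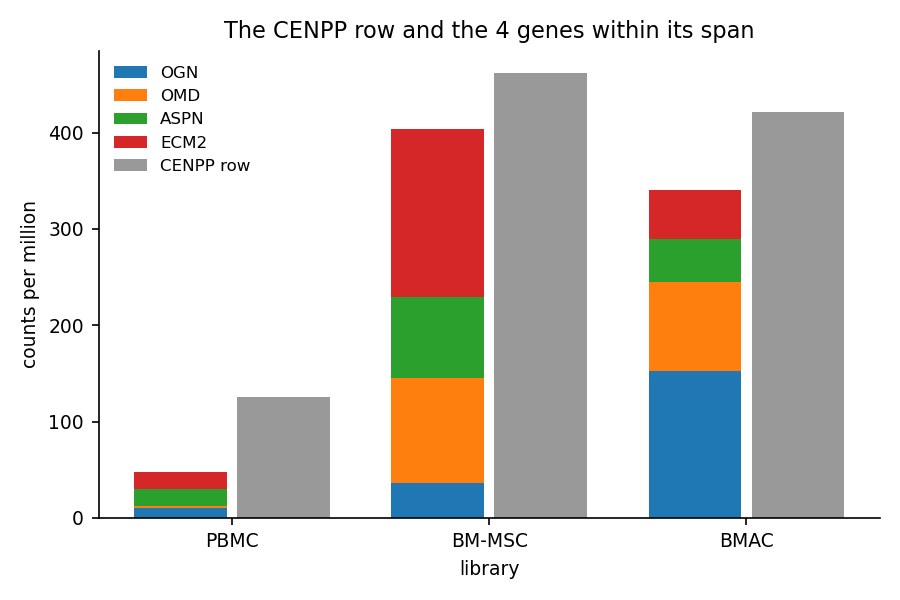
CPM of the CENPP row (grey) beside the stacked levels of the 4 genes within its span in each library. The stack reaches 405 CPM in BM-MSC, 341 in BMAC and 48.0 in PBMC, and the grey bar stands above it in all 3.

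Of 10 other genes of the extended family, 5 were measured in BM-MSC against PBMC, with 4 higher in BM-MSC and 0 in PBMC, and 4 in BMAC against PBMC, with 2 and 0. Over all genes 14.3% passed towards BM-MSC and 14.0% towards BMAC, with 15.7% and 12.8% towards PBMC. Through the marrow library alone 3 of the 5 and 2 of the 4 reached 10 CPM. That favours a difference in this direction, so the counts are a description. TSKU, which encodes the secreted protein tsukushi, was at 103 CPM in BMAC, 86.1 CPM in BM-MSC and 1.17 CPM in PBMC, or above blood by 73.8-fold (46.6 to 125) for BM-MSC and by 88.4-fold (55.7 to 150) for BMAC. PODNL1, a relative of podocan, was at 0.129 CPM from 2 counts in PBMC, beside a BM-MSC level of 21.3 CPM and a BMAC level of 21.0 CPM, so that its level differed little between the marrow libraries (1.01-fold, 0.870 to 1.18). ECM2, named here for its place beside asporin, was at 17.9, 175 and 50.8 CPM in PBMC, BM-MSC and BMAC. LRRC32, a membrane protein with leucine-rich repeats that holds latent TGF-beta and carries no known glycosaminoglycan chain, was at 1.26 CPM in BMAC, 23.5 CPM in BM-MSC and 1.04 CPM in PBMC. It was the 1 of 4 measured genes past the rule between the marrow libraries (18.7-fold, 11.8 to 31.4). In that pair 2.90% of all genes passed towards BM-MSC and 3.21% towards BMAC. CHADL, which overlaps L3MBTL2, was 1.85-fold (1.44 to 2.39) higher in PBMC than in BM-MSC, below the rule.

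The enzymes that build the sugar chains include genes past the rule in either direction. Of 27 measured genes for the linkage region and for chondroitin or dermatan sulfate, the rule put 7 on the side of BM-MSC and 3 on that of PBMC (median log2 ratio 0.18), and 10 on the side of BMAC with 3 on that of PBMC (0.59). Over all genes 14.3% passed towards BM-MSC and 15.7% towards PBMC in the first pair, and 14.0% towards BMAC and 12.8% towards PBMC in the second, so the numbers towards PBMC are no more than that background. With TMM factors the numbers were 9 and 3, and 10 and 2. Through the marrow library alone 8 of the 27 reached 10 CPM in each pair, and through PBMC alone 3 and 2. Either favours a difference towards that library, so these counts are a description. DSEL, an epimerase-like gene of dermatan sulfate synthesis, was at 0.194 CPM from 3 counts in PBMC, beside 184 CPM in BMAC and 63.1 CPM in BM-MSC, or above blood by 325-fold (111 to 1578) for BM-MSC and by 946-fold (323 to 4591) for BMAC. CHPF, a chondroitin polymerising factor, exceeded its PBMC level 18.7-fold (13.7 to 26.3) in BM-MSC and 13-fold (9.44 to 18.3) in BMAC. CHST14, the dermatan sulfotransferase, exceeded it 22.6-fold (12.1 to 47.8) in BM-MSC and 24.2-fold (12.9 to 51.1) in BMAC. CHST7, a chondroitin sulfotransferase gene that overlaps SLC9A7, went the other way and was 35.5-fold (23.7 to 55.6) higher in PBMC than in BMAC. CHSY3, a chondroitin synthase, was at 20.4 CPM in BMAC, 224 CPM in BM-MSC and 3.95 CPM in PBMC. It was the 1 of 25 measured genes past the rule between the marrow libraries (11.0-fold, 9.77 to 12.4, higher in BM-MSC). In that pair 2.90% of all genes passed towards BM-MSC and 3.21% towards BMAC, so 1 of 25 is near the background. The xylosyltransferase XYLT2, at the start of the chain, was level between BMAC and PBMC (1.01-fold, 0.849 to 1.21), and the xylose kinase FAM20B between the marrow libraries (1.01-fold, 0.904 to 1.12). The other xylosyltransferase, XYLT1, was at 552 CPM in PBMC, 6.11-fold (5.78 to 6.45) above BM-MSC and 7.16-fold (6.73 to 7.62) above BMAC. CHST11 also passed towards PBMC in both pairs, at 730, 114 and 156 CPM in PBMC, BM-MSC and BMAC. With TMM factors it fell short against BMAC (log2 ratio -1.94 in place of -2.22).

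Genes for keratan sulfate chains and tyrosine sulfation, modifications known from fibromodulin, lumican and OMD, were not higher in the marrow libraries by the rule with plain CPM, but this rests on the scaling in BMAC. Part of the list was not measured, since CHST5 and CHST6 had no row and B3GNT7, CHST1 and CHST4 stayed under 10 CPM in every library. The rule found 1 of 10 higher in PBMC than in BM-MSC and 2 of 9 higher in PBMC than in BMAC (median log2 ratio -0.65 and -0.89). With 15.7% and 12.8% of all genes measured on the PBMC side, these few calls are near the background and say nothing particular about the list. The genes were the fucosyltransferase FUT8, at 45.0 CPM in BMAC, 33.2 CPM in BM-MSC and 236 CPM in PBMC, and in the second pair also the sialyltransferase ST3GAL2, at 163 CPM against 33.9 CPM. With TMM factors ST3GAL2 fell short of the rule (log2 ratio -1.96 in place of -2.24) and the acetylglucosaminyltransferase B3GNT2 was past it in the opposite direction (2.03 in place of 1.75), so that 1 gene of 9 was higher on each side. Between the marrow libraries 0 of 10 passed, and the tyrosylprotein sulfotransferase TPST1 was level at 158 and 154 CPM. No p-value exists for these counts, which rest on single libraries.

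Collagens that the proteoglycans are known to bind had the same direction against blood. All 10 measured in BM-MSC and all 9 measured in BMAC were higher than in PBMC, where 14.3% and 14.0% of all genes measured were. Of these collagens 9 of 10 and 8 of 9 reached 10 CPM through the marrow library alone, which favours that direction, so the counts are a description. COL1A1 was at 6893 (BM-MSC) and 3219 CPM (BMAC) against 0.129 CPM from 2 counts. Between the marrow libraries COL11A1, a chain of the fibril-nucleating type XI collagen that overlaps LOC110260367, was 94.2-fold (79.6 to 112) higher in BM-MSC. COL12A1 and COL6A3, chains of collagens that join fibrils to their surroundings, had BMAC levels above those of BM-MSC by 8.13-fold (7.76 to 8.51) and 5.02-fold (4.79 to 5.26), while COL6A2 was level (649 and 671 CPM). These 3 were the collagens past the rule, of 10 measured, where of all genes 2.90% passed towards BM-MSC and 3.21% towards BMAC.

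Binding partners that carry signals included genes past the rule in either direction. Of 21 measured growth factors and receptors, 10 passed towards BM-MSC and 4 towards PBMC (median log2 ratio -1.12), and of 22, 8 were higher in BMAC and 4 in PBMC (0.78). Over all genes 14.3% passed towards BM-MSC and 15.7% towards PBMC in the first pair. In the second pair 14.0% passed towards BMAC and 12.8% towards PBMC, so the numbers towards PBMC are near the background in both. In the first pair the median is thus below 0 although more genes passed the rule towards BM-MSC. Through the marrow library alone 6 of the 21 and 7 of the 22 reached 10 CPM, and through PBMC alone 5 and 2. Either favours a difference towards that library, so these counts are a description. TGFB1, the ligand that decorin, biglycan and fibromodulin bind, was at 14.0 CPM in BMAC, 4.28 CPM in BM-MSC and 143 CPM in PBMC, 33.4-fold (26.5 to 42.8) higher in PBMC than in BM-MSC. TGFB2 stood the other way, at 6.99, 127 and 16.9 CPM for PBMC, BM-MSC and BMAC. It was the 1 of 20 past the rule between the marrow libraries (7.51-fold, 6.59 to 8.58, higher in BM-MSC). In that pair 2.90% of all genes passed towards BM-MSC and 3.21% towards BMAC. EGFR, a receptor that decorin binds, was at 1.68, 84.1 and 144 CPM for the same libraries, 85.6-fold (58.3 to 131) higher in BMAC than in blood. The endocytic receptor LRP1 was at 333 (BM-MSC) and 329 CPM (BMAC), 18.9-fold (16.7 to 21.4) and 18.7-fold (16.5 to 21.2) above PBMC.

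Of the measured genes listed as proteases known to cleave the family, 9 of 10 passed towards BM-MSC and 10 of 11 towards BMAC. Towards PBMC 0 passed, beside all-gene shares of 14.3% and 14.0% towards the marrow library. The list includes PCOLCE, which overlaps FBXO24 and encodes an enhancer of procollagen cleavage, not a protease. PCOLCE was at 15.1, 144 and 202 CPM in PBMC, BM-MSC and BMAC and is among the genes that passed in both pairs. Here too 8 of the 10 and 9 of the 11 reached 10 CPM through the marrow library alone. The membrane protease MMP14 was at 395 CPM in BMAC, 360 CPM in BM-MSC and 0.324 CPM in PBMC, or above blood by 1112-fold (476 to 3425) for BM-MSC and by 1221-fold (523 to 3761) for BMAC. Between the marrow libraries 3 of 12 passed, where of all genes 2.90% passed towards BM-MSC and 3.21% towards BMAC. The collagenase MMP1 was at 1.41 (BM-MSC) and 144 CPM (BMAC), 103-fold (68.8 to 161) higher in BMAC, and the aggrecanase ADAMTS4 at 1.99 and 15.1 CPM was 7.57-fold (5.26 to 11.2) higher there. The cysteine protease CTSK was 4.11-fold (3.96 to 4.27) higher in BM-MSC, with 911 and 222 CPM. HTRA1, a serine protease that degrades decorin and biglycan, was at 369 and 397 CPM.

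Factors of tendon, ligament and skeletal lineages were higher in BM-MSC than in PBMC for 7 of 8 measured and in BMAC for 6 of 7. Over all genes 14.3% passed towards BM-MSC and 14.0% towards BMAC. Again most of the measured genes reached 10 CPM through the marrow library alone (7 and 6), which favours that direction. The listed genes SCX, TNMD, THBS4, SP7 and MEOX1 stayed under 10 CPM in every library and were not measured. SCX was at 1.62, 2.05 and 0.529 CPM in PBMC, BM-MSC and BMAC, and TNMD at 0.712, 0.234 and 0.132 CPM. THBS4 and SP7 were highest in PBMC, at 0.906 and 4.08 CPM. The homeobox gene PRRX1, which overlaps LOC106510093, was at 1.75, 231 and 417 CPM in PBMC, BM-MSC and BMAC. MKX, a tendon regulator, was at 2.20, 35.5 and 137 CPM, 62.2-fold (44.4 to 90.1) higher in BMAC than in PBMC. OSR2 had 0 counts in PBMC and stood at 19.9 (BM-MSC) and 3.37 CPM (BMAC), the 1 of 8 past the rule between the marrow libraries (5.91-fold, 4.39 to 8.09). In that pair 2.90% of all genes passed towards BM-MSC and 3.21% towards BMAC. RUNX2, the osteoblast regulator, which overlaps SUPT3H, was not past the rule in any pair, with 261, 78.6 and 196 CPM.

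**Figure D5:**
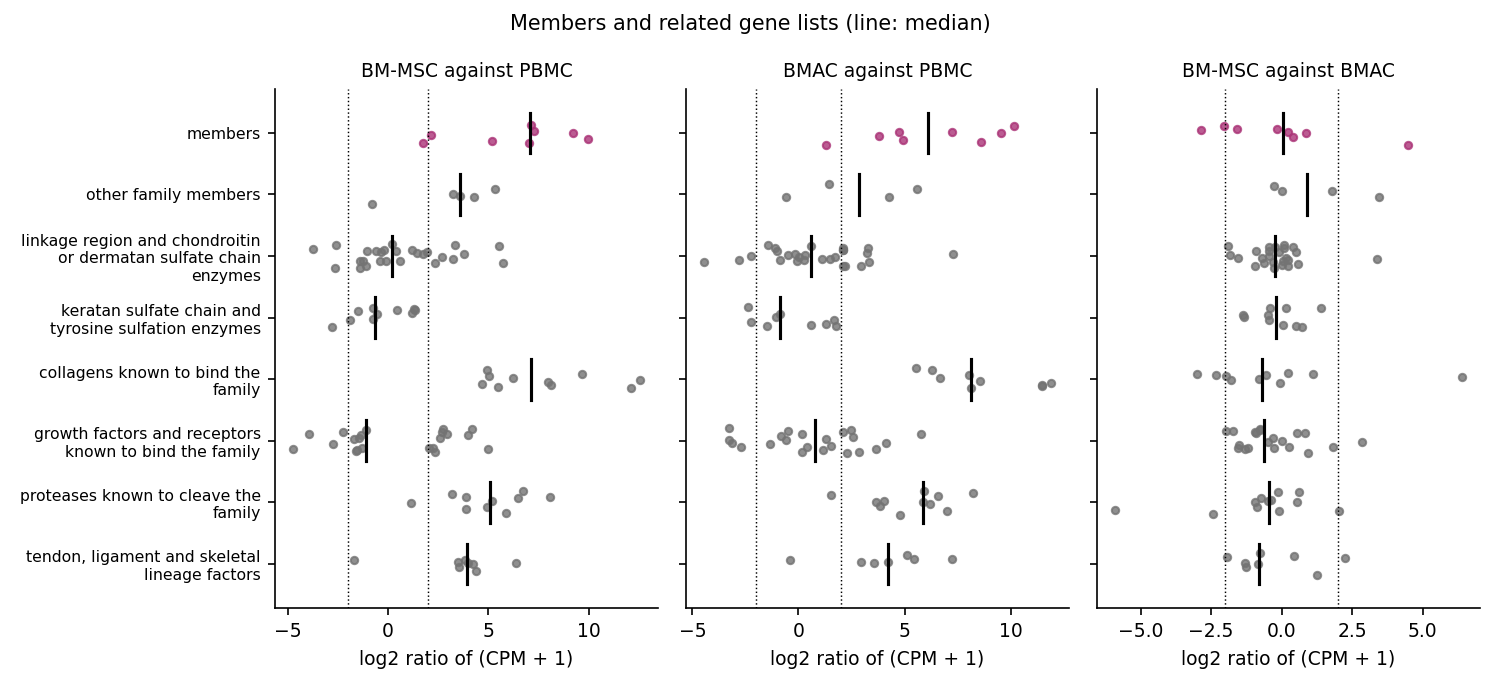
Log2 ratio of (CPM + 1) of each measured gene, one panel per pair, for the members (purple) and the 7 related lists (grey), with the median of each list as a black line and dotted lines at 2 in either direction. Core proteins, collagens and proteases lie mostly to the right in the panels against PBMC, while the sugar chain enzymes spread around 0.

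For each of the 8 members past the rule in some pair, the genes with the most similar pattern were sought among the 10447 other genes with a name and at least 10 CPM in a library. Likeness was the distance between profiles over the 3 libraries, each profile being log2(CPM + 1) less its own mean. With 3 points such likeness is loose and many genes share a pattern. Fibromodulin lay nearest to IGFBP5 (distance 0.654), SFRP4 (0.662) and AKR1CL1 (0.991), all highest in BMAC, with IGFBP5 at 0.129, 316 and 2196 CPM in PBMC, BM-MSC and BMAC. PRELP lay nearest to C9H11orf1 (0.435), a row that overlaps CRYAB, then to EEF1A2 (0.815) and SFRP2 (0.916), with SFRP2 at 0.0647, 712 and 64.7 CPM. SFRP4 and SFRP2, both secreted modulators of WNT signalling, were thus nearest genes of 2 members with opposite order. Decorin lay nearest to PCDH17 (0.232), CCL2 (0.264) and THBS1 (0.407), and biglycan to CTGF (0.155), C1QTNF1 (0.714) and TIMP3 (0.734), which lies within SYN3. Lumican lay nearest to HSPG2 (0.0971) and LDLRAD2 (0.165), which overlap each other, and to CAV1 (0.197). For osteoglycin, asporin and OMD the nearest genes were KCNMA1 (0.0900), SLC38A7 (0.0119) and ZNF219 (0.0390).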

How the data were processed

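The deposited values are raw counts per gene row, as whole numbers and unequal totals show, and no normalization was applied to them per the file headers, which name only the gene symbol and the library. Bowtie2 and bedtools are named per the submitters' processing notes. No source used here gives the aligned build, the annotation, the strand setting or how multiply mapped reads were handled. QuantSeq libraries were made from 500 ng of total RNA per the labels' protocols. Rows with the same symbol were summed (81 symbols, no member among them), and counts were divided by the library total (CPM). The RefSeq table of Sscrofa11.1 served only for names, neighbours and overlaps; a gene is named with an overlapping row that holds at least 25% of its count over the libraries.

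Log2 ratios used a pseudocount of 1 CPM. Folds are CPM ratios with 95% Clopper-Pearson conditional intervals, and 0 counts were taken as 3 for lower bounds. No molecular identifiers are described, so the intervals and lower bounds hold counting error alone. The size rule and the intervals were tested on simulated counts of 26466 genes. These were drawn with counting error only, so the test cannot show how either performs with variation between cultures or animals. The members and lists were chosen with earlier results of these data known. All members are named. Of each other list the text draws on the 3 genes with the largest ratio in each pair and the one with the smallest. XYLT1, CHST11 and PCOLCE were added to the text after seeing the data. For likeness the 3 most similar genes were taken per member. Of the listed symbols 6 had no row and were not analysed here. Alternatives were TMM factors (edgeR 4.0.16), median-of-ratios factors, a total without ribosomal RNA and mitochondrial rows, and other pseudocounts, floors and thresholds. The scaling of the other lists was varied after seeing the data. Computation used Python 3.11.15, pandas 2.3.3 and scipy 1.17.1. No reference sequence was used here.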

Additional observations from a re-analysis of the deposited data

How the results depend on the processing

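Depth limits little between BM-MSC and BMAC, where the 8 measured members held 615 to 20638 counts. Against blood it limits the folds strongly, since 6 of the 8 had 0 to 32 counts in PBMC, so that the fold of fibromodulin in BMAC, 7026, has an interval from 2404 to 34074 and biglycan and lumican have lower bounds only. Podocan and keratocan cannot be described beyond their few or 0 counts. What is missing is replication, as each population is 1 library. No paired analysis was possible because each population has 1 library and the labels pair none. Of 123 log2 ratios of single members under other settings, 116 stayed on their side of the size rule, 5 fell short of it, 2 newly passed it and 0 changed direction (in the 3 with the PBMC level subtracted it could not); all 7 that moved belonged to osteoglycin or asporin. The number of members past the rule stayed within 1.5 times for every alternative but 1: between BM-MSC and BMAC a log2 threshold of 3 left 1 member, PRELP, in place of 3. The median log2 ratio of the members against PBMC depends on the pseudocount, because blood levels are near 0. In BM-MSC it was 7.89 with 0.5 CPM and 4.94 with 5 CPM, and in BMAC 6.72 and 4.38. The median over every measured gene moved under TMM scaling and under median-of-ratios scaling by 0.39 and 0.42 in BM-MSC against PBMC, and by 0.33 and 0.34 in BMAC against PBMC. Over all genes, log2 thresholds of 1 and 3 put 3014 and 975 genes (1630 at 2) on the side of BM-MSC and 3629 and 942 (1794) on that of PBMC. For BMAC against PBMC the numbers were 2817 and 977 (1591) towards BMAC and 3002 and 899 (1451) towards PBMC, and for BM-MSC against BMAC 845 and 141 (299) towards BM-MSC and 1140 and 133 (331) towards BMAC. In this last pair a pseudocount of 5 CPM left 176 and 198 genes, and a floor of 50 CPM left 122 and 176. A floor of 50 CPM in the pairs against PBMC left 856 and 1056 genes for BM-MSC and 907 and 811 for BMAC. The settings without the members in CENPP and with the PBMC level subtracted were chosen after seeing the data.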
